A study of Mus musculus with 6 samples.

Results

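The regions described here are 1429 strong peaks of an antibody against the Quaking (Qk) proteins that lay away from every peak of a control antibody. They were taken from 22166 distinct intervals in a peak list of the anti-PanQk library. Members were chosen by 2 measured values, the reads listed in the peak (10 or more) and the distance to the nearest control peak on the same strand (over 100 nt between the intervals). The mitochondrial chromosome was left out by the same rule, and an interval listed under several gene IDs was counted once, so that 1446 entries gave 1429 members. Reads and distance therefore describe the choice, and no test or support is drawn from them.

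The data came from iCLIP, in which ultraviolet light (400 mJ, per the labels' protocols) links proteins to the RNA they touch and an antibody then recovers the protein with its RNA. All 6 libraries were made from C2C12, an established mouse muscle precursor line of dividing myoblasts that fuse into myotubes. They fell into 5 groups. Myoblasts gave 1 library each with the anti-PanQk, the anti-Qk6 and the anti-Qk7 antibody, 72 h differentiated myotubes gave 2 with anti-PanQk, and myoblasts gave 1 with anti-HA as the control. The 2 peak lists used were those of the anti-PanQk and the anti-HA myoblast libraries; the myotube, anti-Qk6 and anti-Qk7 libraries were not analysed here. HA is a viral peptide tag, and the labels name no HA-tagged protein in these cells. With 1 library and 1 cell line behind each list there are no replicates, and no p-value was computed. Shares carry exact Clopper-Pearson 95% intervals and medians carry 95% intervals from order statistics, which cover counting error only and treat all peaks as independent, also those of the same gene.

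Quaking proteins belong to the STAR family of RNA-binding proteins and contact RNA through a KH domain that prefers a short bipartite sequence, the Quaking response element. Their isoforms come from 1 gene and differ at the carboxyl end, which sets whether they are mainly nuclear or cytoplasmic. They act in alternative splicing, often through intronic sites beside exons, and in the stability, transport and translation of mRNA through sites in 3' untranslated regions. In muscle cells they are known as regulators of exon choice. The files name genes by Ensembl ID alone, so members are given here by ID and mm9 position (1-based), and no symbol or gene function is attached to them. No sequence is printed, the cell type was not checked against marker genes, and neither the response element nor transcript regions were analysed here.

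Of the 3522 anti-PanQk intervals with 10 or more reads off the mitochondrial chromosome, 1429 (40.6%) were members. A control peak overlapped 1650 of the others and lay within 100 nt of the remaining 443. Among the 18230 intervals of 3 to 9 reads, 15854 (87.0%) lay over 100 nt from a control peak, so distance from the control was the usual state of weak peaks and the less usual state of strong ones. These percentages are fixed by the rule and are background to what follows. Below, the members are set against 2 other groups of anti-PanQk peaks, the 2093 strong peaks with a control peak within 100 nt and the 15854 weak peaks without one.

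Many members lay close to the read limit, and 567 of the 1429 (39.7%) had 10 to 12 reads. Their read numbers ran from 10 to 112 with a median of 14 (quartiles 11 and 18). Exactly 10 reads were listed for 211 members, 11 reads for 204 and 12 reads for 152, while 127 members had over 26 reads and 40 had over 50. Just outside the read limit, 333 intervals of 9 reads lay equally far from the control. Widths varied on both sides of the limit. By position, the first members of 10 reads had 3, 65, 43, 57 and 7 nt. The first such intervals of 9 reads had 35, 55, 51, 57 and 80 nt. Those of 57 nt were under ENSMUSG00000026185 at chr1:72908278-72908334 (10 reads) and ENSMUSG00000026043 at chr1:45405566-45405622 (9 reads). Together the members held 24180 of the 183578 reads listed in anti-PanQk intervals off the mitochondrial chromosome (13.2%). Depth of the libraries is unknown, so read numbers are as listed.

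The distance limit also cut through a continuum. Members lay at most 200 nt from a control peak in 140 cases, over 1000 nt in 922 and over 10000 nt in 649. The 5 nearest members were 102, 105, 105, 105 and 106 nt away, under ENSMUSG00000032562, ENSMUSG00000001175, ENSMUSG00000022337, ENSMUSG00000037071 and ENSMUSG00000024590, and had 14, 11, 10, 40 and 14 reads. The 5 strong intervals just outside were 100, 100, 99, 98 and 98 nt away, under ENSMUSG00000044533, ENSMUSG00000029394, ENSMUSG00000029761, ENSMUSG00000022378 and ENSMUSG00000075700, with 10, 21, 25, 55 and 14 reads. On the opposite strand, 1 member had a control peak overlapping or within 100 nt. By strand the members split into 699 on plus and 730 on minus.

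Being far from a control peak did not mean that the gene was absent from the control list. The members fell under 861 gene IDs when each was given the first ID listed for it, and under 871 when every listed ID was kept. No control peak was listed for 376 of the 861 IDs, and these carried 492 members (34.4% of members, 32.0 to 37.0). The other 937 members lay under 485 IDs that had control peaks elsewhere. In those 485 IDs the strongest member had more listed reads than the strongest control peak in 193, fewer in 272 and the same number in 20. The median of the strongest control peak there was 18 reads (quartiles 15 and 22, highest 100). Reads were not scaled between lists.

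A member was also not always the main peak of its gene ID. It was the strongest anti-PanQk peak under the ID in 747 cases, 682 members were not, and for 137 members it was the only anti-PanQk peak listed.

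The members were wide. Their median width was 74 nt (95% interval 72 to 76, quartiles 52 and 102, range 2 to 318). The strong peaks near control peaks had a median of 30 nt (27 to 32, quartiles 10 and 61), and the weak peaks far from control had 32 nt (32 to 32, quartiles 10 and 43). The weak peaks differ from the members in reads by the rule, so the comparison with them is not matched for strength. Over 50 nt were 77.3% of members (75.1 to 79.5), against 32.7% (30.7 to 34.8) of strong peaks near control and 12.4% (11.9 to 12.9) of weak ones. At most 20 nt were 6.02% of members (4.84 to 7.38), against 41.5% (39.4 to 43.7) and 32.9% (32.2 to 33.6) in the same order. The plot of cumulative widths shows the members to the right of both other groups over most of its range.

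**Figure D1:**
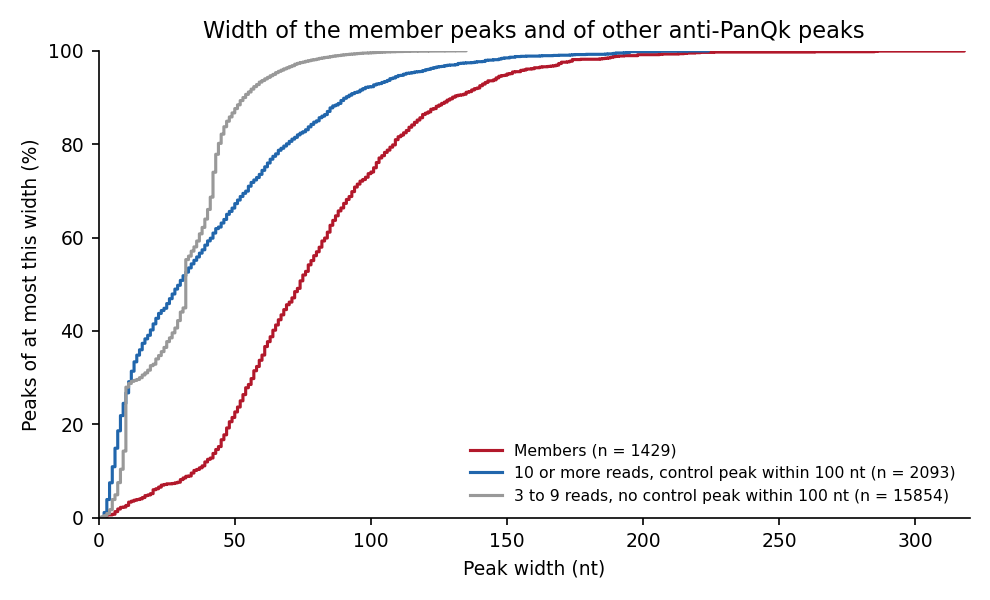
Cumulative share of peaks (vertical axis, %) by peak width (horizontal axis, nt) for the members (red, n = 1429), strong anti-PanQk peaks with a control peak within 100 nt (blue, n = 2093) and weak ones without (grey, n = 15854). The members' curve crosses its median at 74 nt, against 30 nt and 32 nt for the others, and the grey curve has steps at certain widths.

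The width difference was also seen among peaks of like strength in loci of the same minimum length. A locus is defined here by its peaks alone, as everything between the outermost peaks that carry the same gene ID in the 2 lists together, and it can be shorter than the annotated gene. In loci of at least 1000 nt and at 10 to 26 reads, the median width was 76 nt for 1066 members (74 to 78), against 34.5 nt for 1040 strong peaks near control (30 to 39). These loci were not alike in crowding. The ID of a member had a median of 10 anti-PanQk peaks, against 23 for strong peaks near control. Another anti-PanQk peak abutted or overlapped 24.6% of these members, against 66.7%. What part this has in the widths was not tested. When the strongest peak of each gene ID alone was kept, a choice made with the data in view, the medians were 79 nt for 861 members (75 to 82) and 49 nt for 796 strong peaks near control (46 to 53), a smaller difference, with intervals that do not overlap. How the caller places peak edges, and what part it has in these widths, was not tested.

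The 5 widest members lay under 5 different IDs. ENSMUSG00000041258 on the minus strand of chromosome 18 had the widest, of 318 nt and 31 reads. ENSMUSG00000020493 had 286 nt and 29 reads at chr11:86903990-86904275, and ENSMUSG00000031696 had 285 nt and 37 reads at chr8:87784598-87784882, both on the minus strand. The control list named none of these 3 IDs. ENSMUSG00000022533 had 263 nt and 22 reads at chr16:30313204-30313466 (minus), and ENSMUSG00000005397 had 226 nt and 21 reads at chr13:13602856-13603081 (plus), where a control peak lay 142 nt away.

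Median width was larger with more reads, except among the very strongest members. The median was 67 nt in the 567 members of 10 to 12 reads, 77 nt in the 473 of 13 to 17 reads, 84 nt in the 262 of 18 to 26 reads and 85 nt in the 87 of 27 to 50 reads. The 40 members of over 50 reads had a median of 18 nt. Across members, Spearman's rho of reads and width was 0.11 in all 1429 and 0.233 in the 1135 in loci of at least 1000 nt. These are descriptions within 1 library, in which the peaks of a gene share their source.

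The 2 behaviours went with the kind of locus and not with its length alone. Of the 1429 members, 1135 lay in loci of at least 1000 nt under 611 IDs, with a median of 13 reads (highest 66) and 77 nt. A further 103 lay in loci of 150 to under 1000 nt, with a median of 14 reads and 87 nt, and 120 were the single peak under their ID in both lists, with 14 reads and 58 nt. The remaining 71, under 51 IDs, lay in compact loci, those with several peaks in less than 150 nt. These had a median of 47 reads (highest 112) and only 16 nt. Several peaks in less than 150 nt leave little room for wide ones, so the definition itself holds this width down. Of the 40 members with over 50 reads, 32 were in compact loci, 2 were single peaks and 4 lay in loci of at least 1000 nt. At most 35 nt wide were 36 of the 40.

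**Figure D2:**
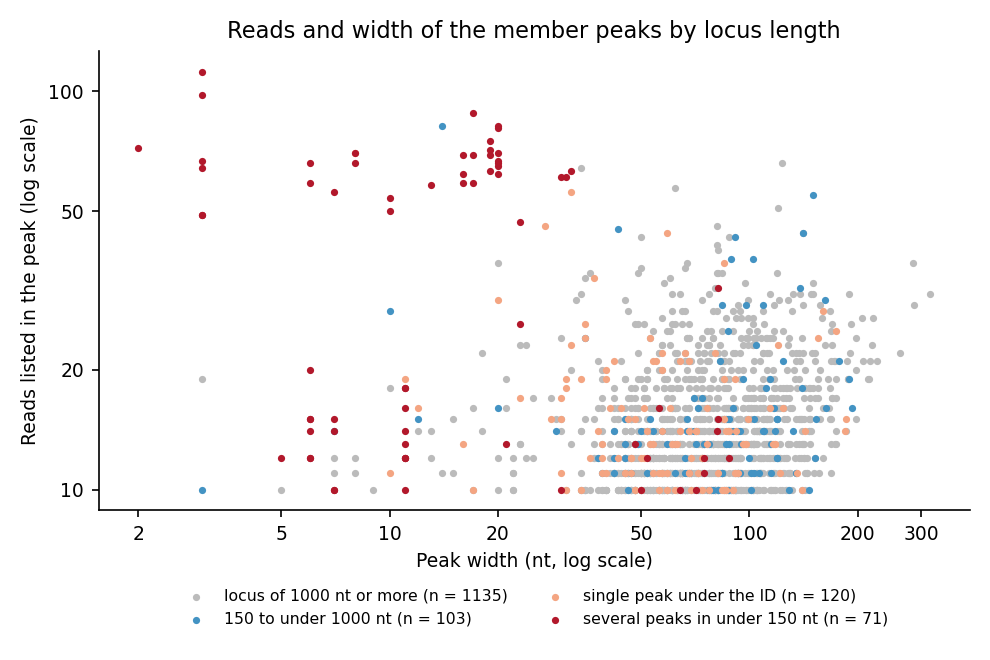
Reads listed in each member (vertical axis, log scale) against its width in nt (horizontal axis, log scale), with 1 point per member coloured by the length of its locus. The compact loci (dark red, n = 71) hold most of the narrow peaks of over 50 reads, and the loci of 1000 nt or more (grey, n = 1135) fill the wide, weaker part with a highest value of 66 reads.

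The strongest members were thus narrow peaks in very short loci. ENSMUSG00000039748 had the highest read number, 112 reads in 3 nt at chr1:177834675-177834677, and no control peak was listed under its ID. ENSMUSG00000024481 on the plus strand of chromosome 18 followed with 98 reads in 3 nt, and ENSMUSG00000065007 with 88 reads in 17 nt at chr11:99717622-99717638. Of the 20 strongest members, taken 1 per ID, 19 had no control peak under the ID, and their loci measured 8 to 53 nt. The last of the 20 had 66 reads, and ENSMUSG00000028419, which has the same number in a long locus, was left out of the 20 by the order of tied values. The exception was ENSMUSG00000090378 on the minus strand of chromosome 1, with 82 reads in 14 nt at chr1:24620892-24620905. There, 27 anti-PanQk and 14 control peaks were crowded into 710 nt, and the nearest control peak lay 241 nt from the member.

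Some of these strong peaks were counted under several IDs with slightly different edges. ENSMUSG00000065666 had 82 reads at chr1:177834676-177834695, which overlaps the strongest member of ENSMUSG00000039748. The chromosome 18 peak of ENSMUSG00000024481 likewise overlapped one of 69 reads and 16 nt under ENSMUSG00000065690. In all, 46 members overlapped another member. Such pairs may list the same reads, which was not checked. Other strong members were ENSMUSG00000064461 (81 reads, chr1:98513676-98513695), ENSMUSG00000064735 (75 reads, chr9:72481254-72481272), ENSMUSG00000064663 (72 reads, chr12:53704775-53704776) and ENSMUSG00000065819 (71 reads, chr8:101596363-101596381).

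Many of the very short loci shared an internal arrangement, found under 30 of the 51 IDs of compact loci that held members and not under the other 21. A strong peak opened the locus at its upstream edge, and a weaker peak began 30 to 32 nt further on. This was looked for after the strongest members had been seen, in gene IDs whose anti-PanQk peaks spanned 32 to 60 nt, whose most upstream peak was the strongest with at least 30 reads, and which had a peak starting 30 to 32 nt downstream. Such an arrangement was found at 74 loci, and in 30 of them, on 14 chromosomes, the opening peak was a member. Because overlapping IDs list 2 of the 30 and 2 of the other 44 loci at a place already counted, the loci amount to 28 and 42 separate places. Whether different places share a sequence and list the same reads was not analysed, so they are not shown to be independent sites. The second peak here means the strongest peak that starts 30 to 32 nt from the upstream edge. At many of the 30 loci, other anti-PanQk peaks of few reads lay between it and the opening peak. An example is the peak of 3 reads at 20 to 26 nt under ENSMUSG00000064412. In the 30 loci the opening peak had 47 to 112 reads (median 65.5) and the second peak 3 to 20 reads (median 10), with a median ratio of 6.74. The second peak began 31 nt from the upstream edge in all 22 plus-strand loci and 32 nt from it in 7 of the 8 minus-strand loci. The locus measured 42 nt in 12 of the 30 and 37 to 53 nt in all. The opening peaks of these 30 loci included 27 of the 40 members with over 50 reads.

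The same arrangement was present where the control list also had a peak. At the other 44 loci, on 20 chromosomes, the opening peak had 40 to 703 reads with a median of 63.5, and the second had 3 to 26 reads with a median of 9, close to the values at the 30 member loci. The strongest control peak there was weak in most cases, under 10 reads at 30 loci and 10 or more at 14 (median 6, range 3 to 526). It overlapped the opening anti-PanQk peak at 21 loci and lay downstream of it at 23, and its median width was 57 nt. At 5 of the 44 loci the opening peak had over 120 reads. A control peak within 100 nt, often of few reads, is what the rule uses to separate the 44 from the 30. All 74 were picked for their form, so no test was made. Without the IDs of the arrangement 1382 members were left, with a median width of 75 nt.

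**Figure D3:**
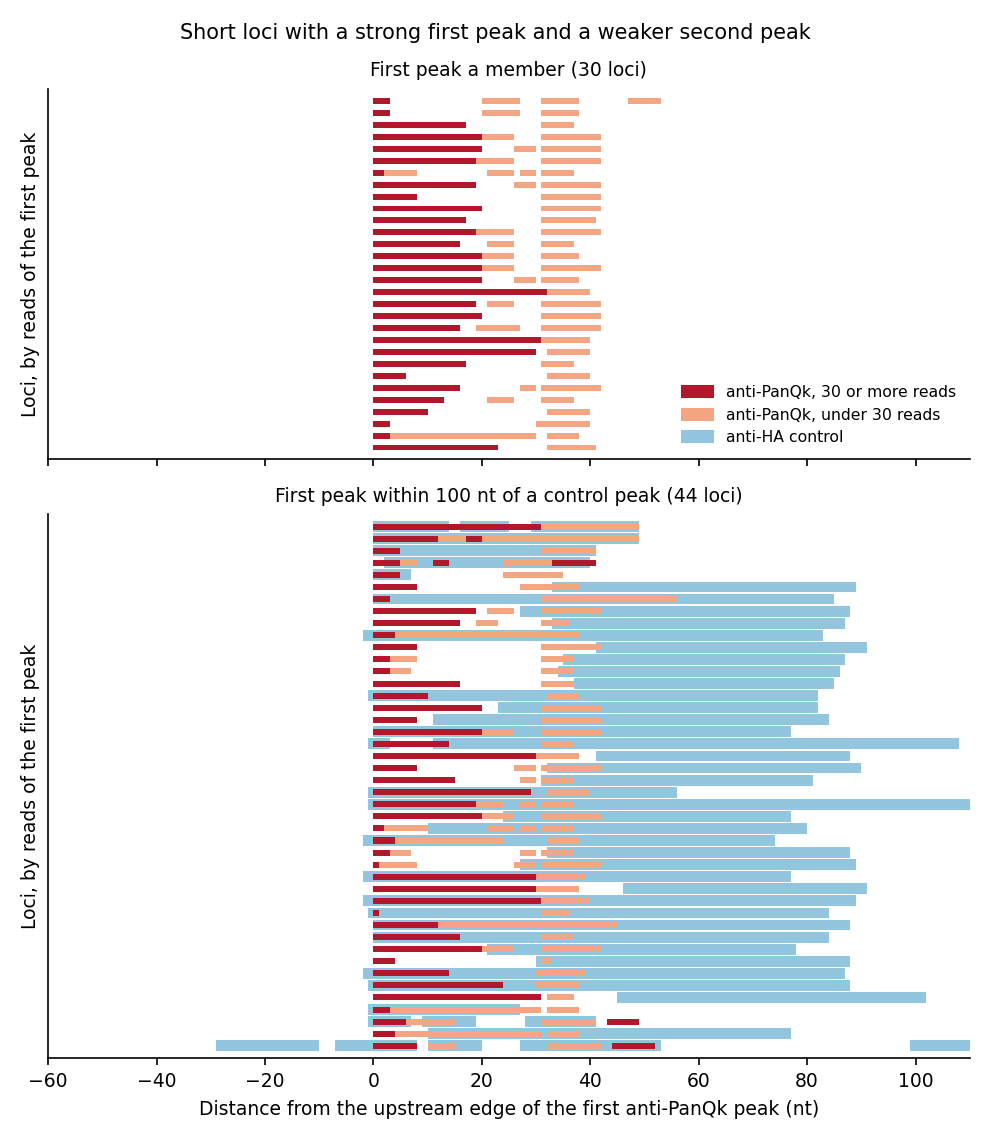
Short loci aligned at the upstream edge of their first anti-PanQk peak, with distance in nt on the horizontal axis and 1 line per locus in descending order of the first peak's reads; the upper panel has the 30 loci whose first peak was a member and the lower panel the 44 with a control peak within 100 nt. Dark red bars are anti-PanQk peaks of 30 or more reads, light red bars weaker ones and blue bars control peaks, and in both panels a peak starts 30 to 32 nt downstream. Control bars stand in the lower panel only, as the rule requires.

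In longer loci the strongest members were wider. ENSMUSG00000028419 had 66 reads in 123 nt at chr4:40911867-40911989 (plus), with no control peak under its ID and 4 anti-PanQk peaks over 12217 nt. ENSMUSG00000026547 had 64 reads in 34 nt at chr1:174437372-174437405 (plus), only 172 nt from a control peak and among 6 control peaks of its ID. ENSMUSG00000027679 had 57 reads in 62 nt at chr3:33971706-33971767 (minus), and ENSMUSG00000037031 had 51 reads in 120 nt at chr10:61650133-61650252 (minus), neither with a control peak under its ID. These are the 4 members of over 50 reads in loci of at least 1000 nt.

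In long loci the members gathered at the downstream end. Of the 1135 members in loci of at least 1000 nt, 773 had their middle in the last 10% of the locus (68.1%, 65.3 to 70.8), 94 in the first 10% (8.28%, 6.74 to 10.0) and 268 in between. The strong peaks near control were placed alike, with 938 of 1443 in the last 10% (65.0%, 62.5 to 67.5) and 8.11% (6.75 to 9.64) in the first. The difference between these 2 groups was not tested. The weak peaks far from control differed from both, with 42.0% (41.1 to 42.8) of 13059 in the last 10% and 24.3% (23.6 to 25.1) in the first. With the strongest peak per ID only, the share in the last 10% was 71.2% of 611 members (67.4 to 74.8), against 66.5% of 373 strong peaks near control (61.4 to 71.3).

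Counted in bases, the middle of a member lay a median of 696 nt from the downstream end (quartiles 154 and 2100), and 665 of the 1135 lay within 1000 nt of it. Because peaks set the locus ends, a gene with few peaks places some of them at an end by construction. Peaks of the control list also set some of these ends, as under ENSMUSG00000058013 and ENSMUSG00000021215 below. Of the 773 members in the last 10%, 214 were themselves the most downstream peak of the locus. Whether the ends are those of the annotated transcripts was not analysed here.

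**Figure D4:**
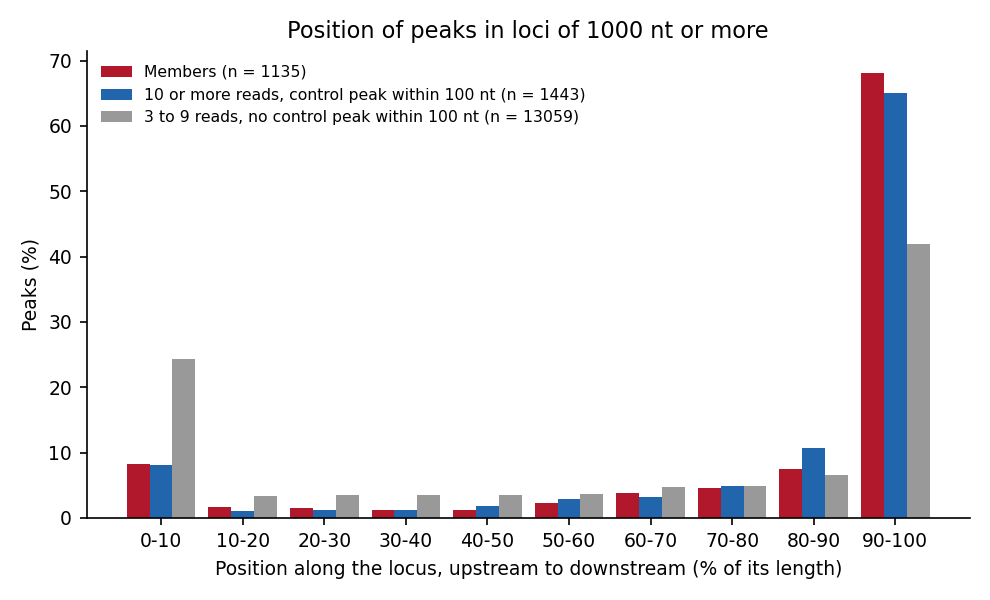
Share of peaks (vertical axis, %) in each bin of 10% of the locus from upstream to downstream (horizontal axis, % of locus length) for members (red, n = 1135), strong anti-PanQk peaks near control (blue, n = 1443) and weak ones far from control (grey, n = 13059), in loci of at least 1000 nt. The last bin holds 68.1%, 65.0% and 42.0%, and the first holds 8.28%, 8.11% and 24.3%.

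Within loci of at least 1000 nt, only 1 member outside the last 10% had over 50 reads. In the first 10%, the strongest was the peak of ENSMUSG00000027679 given above (57 reads), followed by ENSMUSG00000091931 with 26 reads at chr12:103991670-103991720 and ENSMUSG00000060002 with 25 reads at chr10:87949811-87949900. Between the first and last 10%, the strongest were ENSMUSG00000032518 with 35 reads at chr9:120039622-120039670 and ENSMUSG00000029840 with 34 reads at chr6:35461464-35461498.

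Members were often part of a group of peaks. Another anti-PanQk peak of any strength lay within 100 nt of 892 members (62.4%, 59.9 to 64.9), against 83.2% (81.6 to 84.8) of strong peaks near control and 15.3% (14.8 to 15.9) of weak peaks far from it. A member abutted or overlapped such a peak in 25.0% of cases (22.8 to 27.3), against 64.5% (62.5 to 66.6) and 3.71% (3.42 to 4.01). With the strongest peak per ID only, the shares with a peak within 100 nt were 51.6% of members (48.2 to 55.0) and 61.8% of strong peaks near control (58.3 to 65.2). When members within 50 nt of each other were joined, the 1429 became 1230 sites, of which 1080 held 1 member, 124 held 2 and 26 held 3 or more, with 8 in the largest. Neighbouring members under the same ID lay a median of 144.5 nt apart over 568 pairs, and 90 of the pairs abutted.

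The place of members in their locus was much the same at every distance from the control. The share in the last 10% was 71.8% (63.0 to 79.5) at up to 200 nt, 68.3% (63.0 to 73.2) from there to 1000 nt, 67.3% (61.3 to 72.9) from there to 10000 nt and 67.4% (62.6 to 71.9) beyond. Width was lowest next to the limit, with medians of 62 nt (58 to 66), 74 nt (70 to 77), 78 nt (73 to 84) and 75 nt (71 to 79) in the same 4 classes. Another anti-PanQk peak lay within 100 nt of 77.9% (70.1 to 84.4), 69.2% (64.2 to 73.9), 60.8% (54.7 to 66.6) and 55.9% (52.0 to 59.8) of members, lower in each class farther from the control. Members of over 50 reads numbered 1 of 140, 1 of 367, 1 of 273 and 37 of 649 over the classes. Reads and distance are both part of the rule, so nothing is drawn from these counts.

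Members under IDs with no control peak had nearly the same width as the rest. Their median was 73.5 nt (68 to 79), against 74 nt (72 to 77) for members under IDs with a control peak. The share in the last 10% was 65.2% (58.8 to 71.1) against 68.9% (65.8 to 71.9). A neighbouring peak within 100 nt was less frequent, at 53.5% (48.9 to 57.9) against 67.1% (64.0 to 70.1). Of the 40 members over 50 reads, 38 were under IDs with no control peak. But 34 of the 40 lay in compact or single-peak loci, where the rule and the definitions leave little or no room for one.

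Most IDs had 1 member, but most members shared their ID with another. A single member was found under 591 IDs (68.6% of IDs), and the other 838 members (58.6% of members) lay under IDs with more. There were 2 members under 145 IDs, 3 under 56 and 4 under 32, while 37 IDs had 5 or more and held 252 members. Of the 10 IDs with the most members, 8 had control peaks elsewhere in the locus, and the strongest member had 18 to 35 reads, below the 40 members of over 50 reads. ENSMUSG00000062078, on the minus strand of chromosome 17, had the most, with 15 members of 10 to 31 reads that held 47.0% of the reads of its 59 anti-PanQk peaks. The strongest, of 31 reads and 138 nt at chr17:10399353-10399490, was the most downstream peak of the locus, and the widest had 155 nt and 17 reads at chr17:10400731-10400885. All but 1 of the 15, or 14, had their middle in the last 10% of the locus, and the other, of 11 reads, lay about 76500 nt from its end. Its 6 control peaks had at most 19 reads, and the nearest lay 123 nt from a member.

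ENSMUSG00000021215, on the minus strand of chromosome 13, had its members at the opposite end. All 12, of 10 to 22 reads, lay between positions 3900618 and 3902260, within the upstream end of a locus of 20.1 kb, and none was in the last 10%. Beginning downstream, the 12 members had 19, 13, 19, 17, 10, 15, 17, 12, 16, 13, 16 and 22 reads, so no single peak stood out. They formed 4 sites after joining within 50 nt, with 8 members in the largest, so the 12 are not 12 separate sites. The 2 control peaks of the ID had at most 19 reads and lay at least 16863 nt from any member.

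ENSMUSG00000026434, on the plus strand of chromosome 1, had 11 members that were all separate sites. Their reads, from upstream to downstream, were 18, 21, 14, 13, 11, 23, 10, 18, 11, 15 and 22, over positions 133828438 to 133832095. Only 2 were in the last 10% of a 7.61 kb locus, and the 1 control peak, of 16 reads, lay 123 nt from the nearest. A stronger anti-PanQk peak of the ID, of 73 reads, was not a member. ENSMUSG00000058013, on the plus strand of chromosome 5, also had 11 members, of 10 to 21 reads, and all were in the last 10% of its 63.1 kb. That length was set by a control peak of 3 reads, and the anti-PanQk peaks of the ID reached only 17997 nt from the downstream end. The members lay 135 to 3460 nt from it, so with anti-PanQk peaks alone not all 11 would be in the last 10%. The 11 members made up 29.4% of the reads of its 60 anti-PanQk peaks, and 6 control peaks of at most 19 reads were listed under the ID. Its strongest anti-PanQk peak, of 28 reads, was not a member.

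ENSMUSG00000020612, on the plus strand of chromosome 11, had 9 members with the highest read number among the 10 IDs. Their reads were 18, 28, 10, 14, 13, 35, 10, 19 and 12, and the strongest lay at chr11:109530335-109530370. Of the 9, 6 abutted another member, so that the group came to 5 sites. ENSMUSG00000030208, on the plus strand of chromosome 6, had 8 members of 10 to 24 reads that held 73.3% of the reads of its anti-PanQk peaks, the highest share among the 10. The strongest, at chr6:135333078-135333188, was the most downstream peak of the locus.

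ENSMUSG00000029840 on chromosome 6 and ENSMUSG00000026276 on chromosome 1 had 8 members each, and their strongest anti-PanQk peaks were not members. The strongest other anti-PanQk peak had 55 reads under ENSMUSG00000029840, where the strongest member had 34, and 124 reads under ENSMUSG00000026276, where it had 25. The members held 18.7% of the reads under the first ID, which had 63 anti-PanQk and 12 control peaks, and 22.0% under the second, which had 34 and 5. Control peaks reached 18 reads under the first and 39 under the second. ENSMUSG00000040152 on the plus strand of chromosome 2 and ENSMUSG00000026193 on the minus strand of chromosome 1 had 8 members each and no control peak at all. In ENSMUSG00000040152 the reads were 13, 12, 17, 18, 14, 10, 14 and 12 from upstream to downstream, with 7 of them within the last 10% of a 15.1 kb locus. In ENSMUSG00000026193 they were 11, 12, 21, 10, 18, 13, 12 and 12 in the order of rising position, and the members were scattered over the whole 67.6 kb with 3 in the last 10%.

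**Figure D5:**
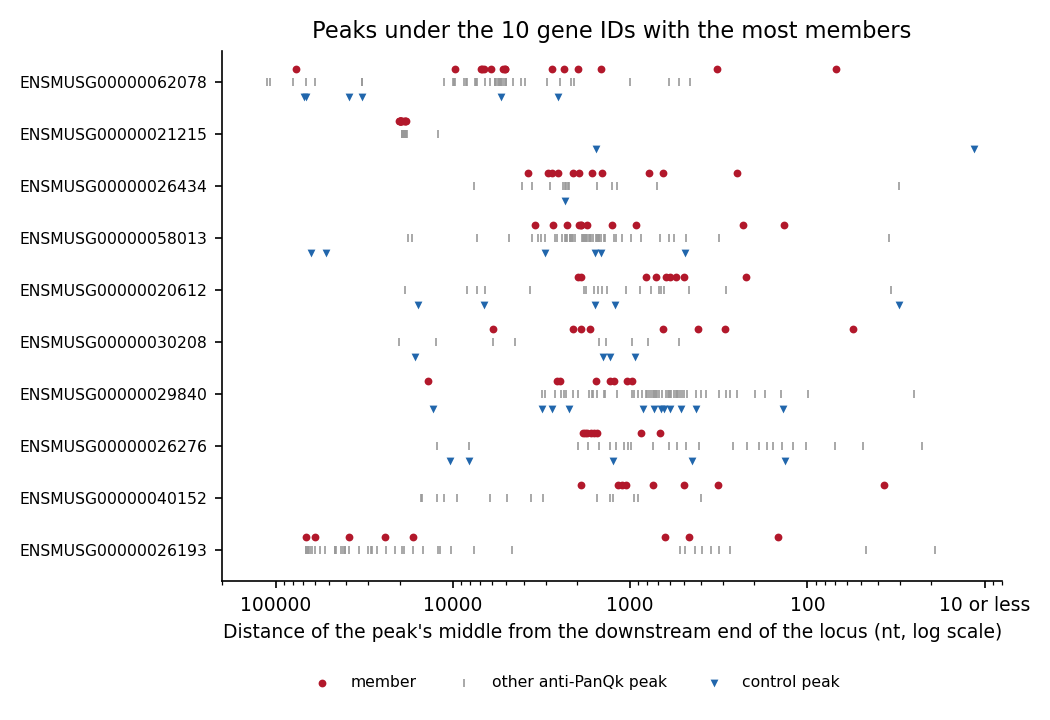
Distance of each peak's middle from the downstream end of its locus (horizontal axis, nt, log scale, upstream at the left) for the 10 gene IDs with the most members, in descending order with 15 members at the top and 8 at the bottom. Red points are members, grey ticks other anti-PanQk peaks and blue triangles control peaks. ENSMUSG00000021215 has all 12 members at the upstream end of a locus whose downstream end is set by a control peak. The last 2 IDs have no control peak.

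The share of strong peaks that were members differed between chromosomes. The X chromosome held 49 members (3.43%, 2.55 to 4.51), against 8.60% (7.43 to 9.88) of strong peaks near control and 3.41% (3.14 to 3.71) of weak peaks far from it. Of all anti-PanQk intervals off the mitochondrial chromosome, 4.78% were on the X chromosome. Chromosome 11 held 8.61% of members, 17.8% of strong peaks near control and 10.3% of all these intervals. Members made up 40.6% of all strong peaks. By chromosome the share was 21.4% on X, 24.8% on chromosome 11 and 29.9% on chromosome 9, against 61.3% on chromosome 17 and 58.3% on chromosome 8. The distance rule sets this share, so it depends on where control peaks lie. These shares count peaks and not genes.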

How the data were processed

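Per the file headers, each of the 2 lists is a CLIPper call set from 1 library in mm9 coordinates. The header tags rptfilt and premRNA have no explanation there. The submitters' processing notes name TopHat, Bowtie2 and mm9; their versions are not given in the sources. A deposited peak has an interval, a strand, a p-value by the authors and a name made of an Ensembl gene ID, a running number and a last part taken here as the number of reads. The p-values depend on reads and width and were not used. Depth is unknown, since the authors deposited peaks and not library totals in these lists; the anti-PanQk list has 22488 entries (204258 reads, median 4) and the control list 8496 (156166 reads, median 15).

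Distances were counted on the same strand as bases between intervals with pandas 2.3.3, scipy 1.17.1 and numpy 2.4.6 in Python 3.11.15, and figures were drawn with matplotlib 3.10.9. Exact intervals are at 95%. The code for distances and for joining peaks was tested on simulated intervals with known answers, and the choice of members was not part of that test. The text names the 20 strongest members (1 per ID) in full or by range, the 10 IDs with the most members, the 5 widest members and those next to each limit; the strongest members of long loci and the recurring arrangement were added after seeing the data. The members, rules and lists were chosen with earlier results of these data known. No reference table given with the data paired the IDs with symbols (0 matched), so the planned gene lists and cell type markers were not applied.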

Additional observations from a re-analysis of the deposited data

How the results depend on the processing

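Each choice was changed alone, and the counts measure how the rule is set rather than an error. The 1429 members became 2147 with a minimum of 8 reads, 613 with 15 and 294 with 20, 922 over 1000 nt from control peaks, and 492 where an ID with any control peak was dropped. The 871 gene IDs became 446 with 15 reads, 261 with 20 and 379 where an ID with any control peak was dropped. The other 9 settings gave 1066 to 1977 members, among them 1066 over 500 nt, 1428 with control peaks of either strand and 1977 when only control peaks of 10 or more reads counted, and the other 7 gave 637 to 1175 IDs. The median width of 74 nt became 81 nt with 15 reads, 79 nt with 20, 67 nt when only overlap excluded a peak, 83 nt for members joined within 50 nt and 79 nt with the strongest member per ID. The share in the last 10% of the locus, 68.1%, became 76.8% with 20 reads, 71.2% with the strongest member per ID, 76.3% in loci of at least 10000 nt, 57.7% in the last 5% and 58.6% in the last 1000 nt. The share with another anti-PanQk peak within 100 nt, 62.4%, became 69.8% with 15 reads, 71.1% with 20, 69.7% when only overlap excluded a peak, 58.1% over 500 nt, 50.9% for joined members and 51.6% with the strongest member per ID. The strongest member per ID and the removal of the recurring arrangement were chosen after seeing the data. The median width was computed under 7 alternatives and ranged over 67 to 83 nt in them.

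The planned positions relative to annotated gene ends and the motif counts were not run, since they need a genome and annotation of the build. No paired analysis was possible because each of the 2 peak lists comes from 1 library. The read minimum of 10 is close to the median of the members, so membership of many single peaks depends on 1 or 2 reads. The unknown depth of the control limits what the lack of a control peak shows: a weaker control signal would not be listed.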
